A study of Mus musculus with 10 samples.

Results

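The 34 endothelial cell genes described here are genes used to mark the cells that line blood vessels. They were taken from a written list, each with a normalised read count of at least 10 in at least 2 libraries of the deposited table. All 34 of the 34 listed genes met that rule, among 16290 genes in the table, and none was lost to it. The lowest value of any of them in a library was 135, for Esm1, so no listed gene lay near the threshold. The 10 RNA-seq libraries were made from cells labelled as mammary epithelium, from mice of strain FVB. The genotypes NIC and NIC-Prmt6 were represented by 2 libraries each, and NIC-Prmt1 and NIC-Carm1 by 3. Every group carries NIC, which the labels do not spell out, and the 3 other genotypes add overexpression of a protein arginine methyltransferase (PRMT), an enzyme that methylates arginines of histones and other proteins. Per the labels, the cells came from mammary glands number 3 and 4, which were digested with enzymes and spun briefly. The promoter of each transgene, the age of the animals, whether the glands held tumours and which libraries share an animal were not given in the sources used here. P-values therefore measure only the spread between these samples, part of which may be technical. The design asks which genes change in these cells when a PRMT is overexpressed, and each PRMT genotype is compared below with NIC and with the others.

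Endothelial cells form the inner lining of blood and lymph vessels. They are held together by junction proteins such as VE-cadherin, and they grow and sprout in response to vascular endothelial growth factors (VEGFs) acting on receptors that are largely restricted to these cells. A second receptor system, of TIE2 and the angiopoietins, is known for keeping vessels quiescent, and transcription factors of the ETS and SOX families keep the endothelial genes switched on. In the mammary gland the vessels lie in the stroma around the epithelial ducts, and their number follows the growth and regression of the gland.

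The recovered reads ranged from 21589274 to 30260921 per library. NIC-Carm1 replicates 2 and 3, and NIC-Prmt6 replicates 1 and 2, were nearly identical: their reads differed over genes by a chi-square per degree of freedom of 2.65 and 2.41, against 27.2 to 101 in the 6 other pairs within a group. That is above sampling noise, and each library was counted, but the members of such a pair may be repeat libraries of 1 sample. NIC-Prmt6 would then hold 1 independent sample and NIC-Carm1 2, and the p-values would be too small, so key counts are also given with each such pair averaged to 1 sample. As a check of the labels, Prmt6 was 1.09 ± 0.20 (SE) higher on the log2 scale in NIC-Prmt6 than in NIC (limma adjusted p = 0.00321), and Carm1 was 0.57 ± 0.09 higher in NIC-Carm1 (adjusted p = 0.0049). Prmt1 differed by 0.05 ± 0.12 between NIC-Prmt1 and NIC (adjusted p = 0.784), so its counts do not show the overexpression that the label names, and NIC-Prmt1 below always means the libraries so labelled. All 7 luminal epithelial markers (such as Epcam and Krt8) were present in every library, at 0.557% to 1.11% of the reads in sum. The 34 endothelial genes made up 0.275% to 0.775% of the reads, so transcripts of endothelial genes were present in every sample labelled as epithelial cells.

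Endothelial genes were higher in NIC-Prmt1 and NIC-Prmt6 than in NIC, and most did not differ detectably between NIC-Carm1 and NIC. Summed over the 34 genes, the normalised read count was 75924 and 92706 in the NIC libraries, 195629, 133294 and 155084 in NIC-Prmt1, 73948, 87905 and 86267 in NIC-Carm1, and 188905 and 190039 in NIC-Prmt6. Every NIC-Prmt1 and NIC-Prmt6 library thus lay above every NIC and NIC-Carm1 library, and the NIC-Carm1 libraries overlapped those of NIC. In bulk samples, more cells of a type and more RNA per cell cannot be told apart. The 3 comparisons with NIC share the same 2 NIC libraries.

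**Figure D1:**
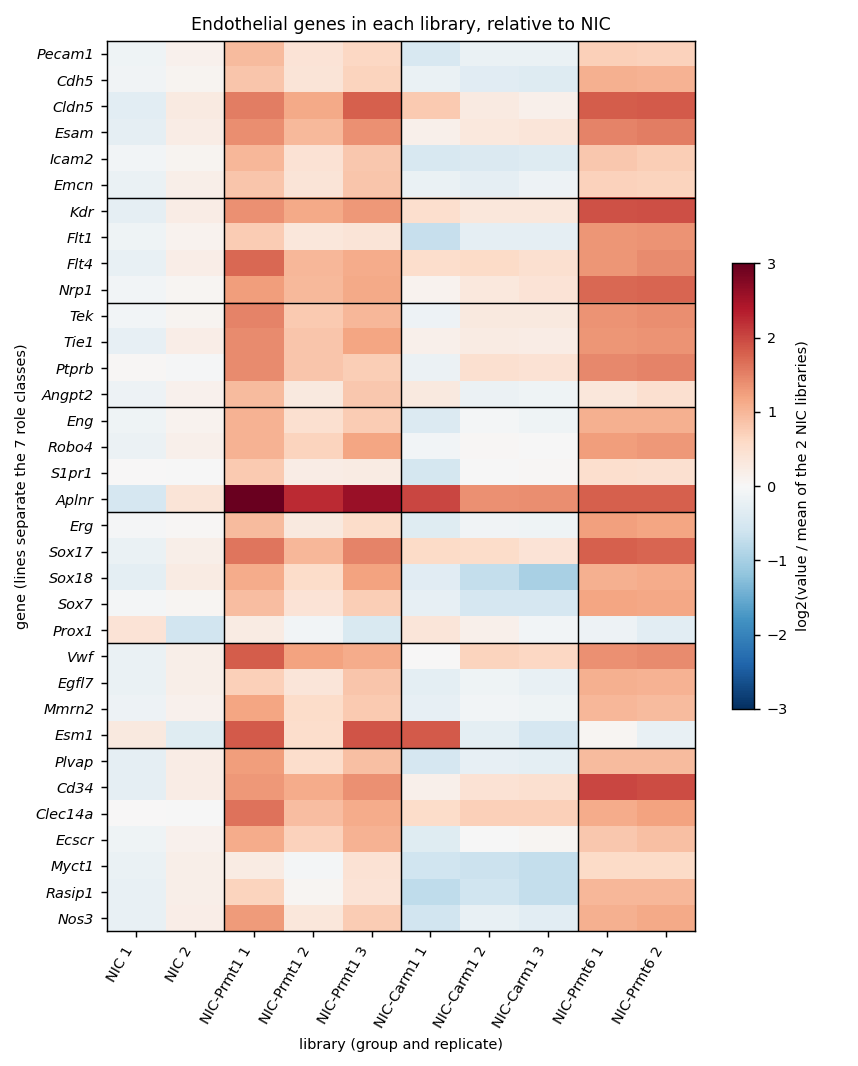
Each cell shows the log2 ratio of an endothelial gene's normalised read count in a library (columns, by group and replicate) to the mean of the 2 NIC libraries, for 34 genes in 7 role classes (rows). Most rows are above 0 (red) in the 3 libraries of NIC-Prmt1 and the 2 of NIC-Prmt6. Prox1 does not follow them in either genotype, and Esm1 does not in NIC-Prmt6.

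In NIC-Prmt1 against NIC, 29 of the 34 genes rose and 0 fell, at a Benjamini-Hochberg adjusted p under 0.05 from limma over 15694 genes. Of all genes tested, 29.6% were called, 15.2% higher and 14.4% lower. The median log2 fold change of the 34 genes was 0.94, a 1.91-fold difference, while that of all genes tested was 0.00. Fold changes are on the log2(value + 1) scale. In 31 of the 34 genes every NIC-Prmt1 library lay above both NIC libraries, as it did for 28.2% of all genes. The count of rises was 15 without NIC replicate 1, where Angpt2, Cdh5, Egfl7, Emcn, Eng, Erg, Flt1, Mmrn2, Nos3, Pecam1, Plvap, Ptprb, Sox7 and Sox18 lost the call. It was 25 with the nearly identical libraries averaged, where Angpt2, Erg, Flt1 and Nos3 lost it. The count of falls was also 0 at an unadjusted p under 0.05, and with DESeq2, edgeR or voom. The genes not called were Esm1, Myct1, Prox1, Rasip1 and S1pr1.

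In NIC-Prmt6 against NIC, 30 of the 34 genes rose and 0 fell, where 36.8% of all genes were called, 19.0% higher and 17.8% lower. The median log2 fold change of the 34 genes was 1.13, a 2.19-fold difference, against -0.01 for all genes. Both NIC-Prmt6 libraries lay above both NIC libraries in 32 of the genes, as for 38.1% of all genes. Angpt2, Esm1, Prox1 and S1pr1 were not called. Falls numbered 0 as well at an unadjusted p under 0.05 and with DESeq2, edgeR or voom. With the nearly identical libraries averaged, which leaves NIC-Prmt6 as 1 sample whose spread is taken from the other groups, 22 of the 34 were called higher. The calls of Ecscr, Emcn, Icam2, Myct1, Nos3, Pecam1, Plvap and Sox18 were lost there, and all of these but Ecscr and Icam2 were also lost without NIC replicate 1.

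In NIC-Carm1 against NIC, 2 genes rose (Aplnr and Clec14a), 2 fell (Myct1 and Rasip1) and 30 were not called. Those 2 are 5.88% of the list in each direction, near the 6.65% of all genes called higher and the 9.36% called lower (16.0% in all). The median log2 fold change was -0.06, against 0.00 for all genes. Every NIC-Carm1 library lay above both NIC libraries for 6 of the 34 genes and below both for 9, where 23.4% and 24.5% of all genes did so. With the nearly identical libraries averaged, 1 gene rose and 0 fell. The count of rises was 0 without NIC replicate 1, and 1 without NIC-Carm1 replicate 2 or 3 or either NIC-Prmt6 library. The count of falls was 0 without NIC replicate 2 or NIC-Carm1 replicate 2 or 3, 1 without either NIC-Prmt6 library, and 4 without NIC-Prmt1 replicate 1 or 2 or NIC-Carm1 replicate 1.

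**Figure D2:**
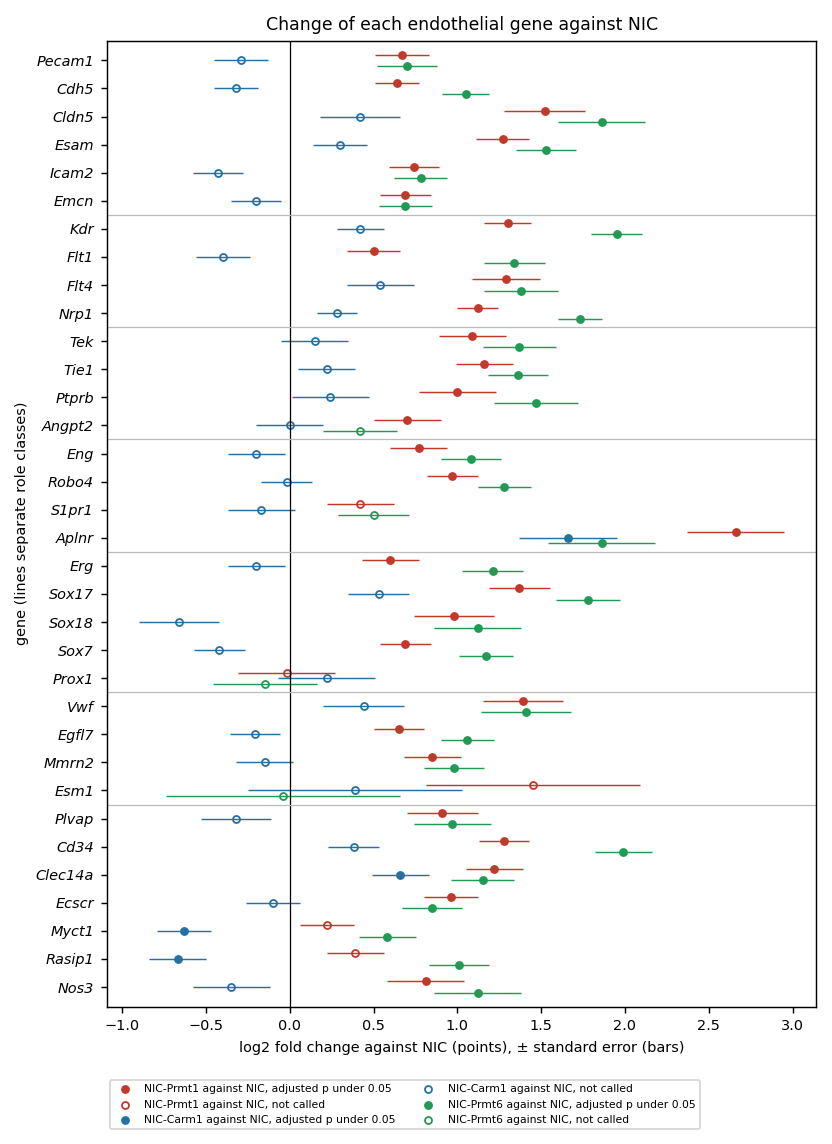
Points give the log2 fold change against NIC of each endothelial gene (rows, in role classes) in each PRMT genotype, and bars give ± 1 standard error. Filled points passed an adjusted p of 0.05. The NIC-Prmt1 and NIC-Prmt6 points lie mostly above 0, and the NIC-Carm1 points lie on both sides of it.

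Per length, the genes spanned a wide range of levels. In reads per kilobase of exon and per 1000000 reads (RPKM, mean of the 10 libraries), Plvap was highest at 264, followed by Cdh5 at 83.9, Pecam1 at 78.1 and Eng at 73.2. Prox1 was lowest at 1.23, below Flt4 at 2.56 and Sox17 at 5.75. Plvap, which makes the diaphragms of small openings in the vessel wall, was at 175 RPKM in NIC, 362 in NIC-Prmt1, 157 in NIC-Carm1 and 364 in NIC-Prmt6.

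**Figure D3:**
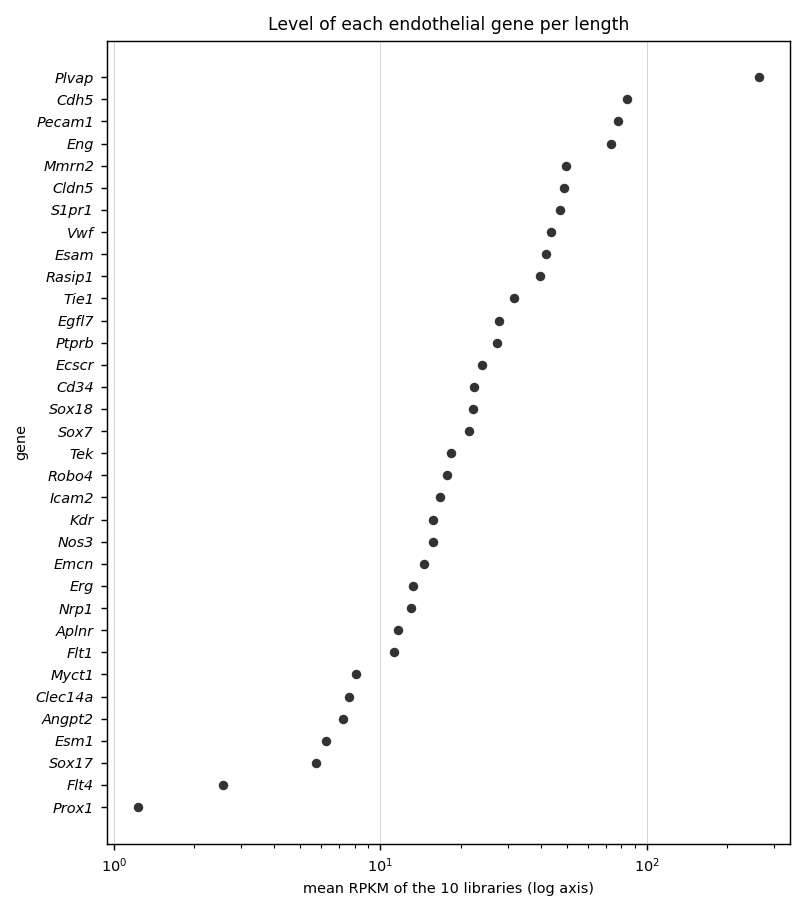
Points give the mean level of each endothelial gene over the 10 libraries in RPKM, on a log axis, with genes (rows) sorted by level. Plvap is highest at 264 and Prox1 lowest at 1.23.

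The 4 genes shown by promoter sequence had the highest mean read count, 1 from a role class. All 4 rose in NIC-Prmt1 and in NIC-Prmt6 against NIC. Their promoter sequences are from RefSeq (GRCm38.p6, the assembly also called mm10), and only genes for which it gives one were considered. Each runs 5′ to 3′ along the gene's strand from 250 bases before the start to 50 after it. Capitals mark a match to CAGGAAG or CCGGAAG, which ETS factors such as Erg bind, or to AACAAT, which SOX factors bind, on either strand. In the Cd34 promoter the capitals CTTCCTG are CAGGAAG read from the opposite strand, and the other 3 windows hold none of these motifs.
Eng promoter, chr2:32646345-32646644, plus strand: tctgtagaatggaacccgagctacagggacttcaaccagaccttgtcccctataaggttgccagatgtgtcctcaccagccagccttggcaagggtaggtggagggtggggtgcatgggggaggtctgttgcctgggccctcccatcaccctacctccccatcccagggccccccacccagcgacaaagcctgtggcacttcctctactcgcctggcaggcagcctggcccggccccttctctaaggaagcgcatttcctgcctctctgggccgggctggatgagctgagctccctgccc
Cd34 promoter, chr1:194938571-194938870, plus strand: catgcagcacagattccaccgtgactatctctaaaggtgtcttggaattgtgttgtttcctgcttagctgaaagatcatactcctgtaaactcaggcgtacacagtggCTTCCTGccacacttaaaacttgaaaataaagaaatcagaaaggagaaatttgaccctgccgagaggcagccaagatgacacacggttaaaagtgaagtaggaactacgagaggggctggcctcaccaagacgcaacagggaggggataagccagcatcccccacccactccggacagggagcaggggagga
Tie1 promoter, chr4:118489800-118490099, minus strand: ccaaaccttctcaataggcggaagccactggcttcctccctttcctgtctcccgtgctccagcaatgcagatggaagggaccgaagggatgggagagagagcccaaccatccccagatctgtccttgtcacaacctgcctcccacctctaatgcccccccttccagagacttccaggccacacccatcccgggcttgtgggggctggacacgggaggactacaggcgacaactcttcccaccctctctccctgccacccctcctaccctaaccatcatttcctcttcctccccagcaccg
Flt1 promoter, chr5:147725962-147726261, minus strand: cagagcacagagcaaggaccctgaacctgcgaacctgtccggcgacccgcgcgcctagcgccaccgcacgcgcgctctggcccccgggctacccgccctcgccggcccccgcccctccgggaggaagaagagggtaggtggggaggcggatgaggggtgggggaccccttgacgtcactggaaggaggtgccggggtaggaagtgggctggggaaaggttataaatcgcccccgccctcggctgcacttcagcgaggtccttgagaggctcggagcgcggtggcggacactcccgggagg

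Windows were found for 18 of the 34 genes, among 27025 genes with one. CAGGAAG lay in 6 of the 18 (33.3%; Emcn, Egfl7, Robo4, Erg, Rasip1 and Cd34), and in 14.8% of all genes. AACAAT lay in 3 of 18 (16.7%; Tek, Emcn and Erg), and in 12.2% of all genes. CCGGAAG lay in 0 of 18 and in 9.93% of all genes. Any of these motifs lay in 7 of 18 (38.9%), and in 32.9% of all genes. These are counts of letters in a window, and binding was not measured. Of the 4 genes called higher in NIC-Prmt6 than in NIC-Prmt1, Cd34 had a match, and Kdr, Flt1 and Nrp1 had none. Whether the motifs bear on any call was not tested.

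All 6 junction and adhesion genes rose in both NIC-Prmt1 and NIC-Prmt6, and none was called in NIC-Carm1. Pecam1 (chromosome 11, 106654217 to 106750628, minus strand, GRCm38 as all gene positions here, protein coding), an adhesion molecule at contacts between endothelial cells, had a normalised read count of 9121 and 10919 in NIC, 19219, 13384 and 15533 in NIC-Prmt1, 7126, 8686 and 8789 in NIC-Carm1, and 16396 and 16085 in NIC-Prmt6. All libraries of NIC-Prmt1 and NIC-Prmt6 were above all others, and the NIC-Carm1 libraries were the lowest. Its log2 fold change against NIC was 0.67 ± 0.16 (SE, adjusted p = 0.0133) in NIC-Prmt1, 0.70 ± 0.18 (adjusted p = 0.0118) in NIC-Prmt6 and -0.29 ± 0.16 (adjusted p = 0.248) in NIC-Carm1. Both rises of Pecam1 were lost without NIC replicate 1. Cdh5 (chromosome 8, 104101625 to 104144511, plus strand), the VE-cadherin of the adherens junction, had counts of 6439 and 7309 in NIC, 12285, 9040.1 and 10906 in NIC-Prmt1, 5958, 5390.2 and 5220.3 in NIC-Carm1, and 14316 and 14148 in NIC-Prmt6. The 4 groups of Cdh5 did not overlap one another, with NIC-Prmt6 highest and NIC-Carm1 lowest. Cdh5 rose by 0.64 ± 0.13 (adjusted p = 0.00707) in NIC-Prmt1, a call lost without NIC replicate 1 (adjusted p = 0.0565). In NIC-Prmt6 it rose by 1.05 ± 0.14 (adjusted p = 0.000701), and its value was -0.32 ± 0.13 (adjusted p = 0.13) in NIC-Carm1. Cldn5 (chromosome 16, 18776847 to 18778262, plus strand), a claudin that seals tight junctions of vessels, had counts of 656 and 991 in NIC, 2386, 1816 and 2834 in NIC-Prmt1, 1409, 986 and 913 in NIC-Carm1, and 2905 and 2967 in NIC-Prmt6. Its NIC-Prmt1 and NIC-Prmt6 libraries lay above every NIC and NIC-Carm1 library, and 1 NIC-Carm1 library stood above the other 2. Among the 6 genes, Cldn5 had the largest rises, of 1.52 ± 0.24 (adjusted p = 0.00226) in NIC-Prmt1 and 1.86 ± 0.26 (adjusted p = 0.000781) in NIC-Prmt6. Esam, an adhesion molecule of endothelial tight junctions, rose by 1.27 and 1.53 in those genotypes. Icam2, an adhesion molecule that leukocytes bind, rose by 0.74 and 0.78. Emcn, the sialoglycoprotein endomucin, rose by 0.69 in each.

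All 4 VEGF receptor genes rose in both genotypes, and 3 of them were higher in NIC-Prmt6 than in NIC-Prmt1 by a direct test given further on. Kdr (chromosome 5, 75932827 to 75978458, minus strand) encodes VEGFR2, the main signalling receptor for VEGF-A, and had counts of 1461 and 2067 in NIC, 4586, 3885 and 4379 in NIC-Prmt1, 2512, 2248 and 2230.5 in NIC-Carm1, and 6612 and 6793 in NIC-Prmt6. The NIC-Prmt6 libraries were the highest, the NIC-Prmt1 libraries next, and both NIC libraries were below every other library. Kdr rose by 1.30 ± 0.14 (adjusted p = 0.000545) in NIC-Prmt1. In NIC-Prmt6 it rose by 1.95 ± 0.15 (adjusted p = 7.08e-05), which is 3.85-fold. In NIC-Carm1 its value was 0.42 ± 0.14 (adjusted p = 0.0679). Flt1 (chromosome 5, 147561604 to 147726011, minus strand) encodes VEGFR1, which binds VEGF tightly and limits the amount that reaches VEGFR2. Its counts were 2633 and 3119 in NIC, 4888, 3611 and 3759 in NIC-Prmt1, 1794, 2388 and 2377 in NIC-Carm1, and 7170.1 and 7369 in NIC-Prmt6. NIC-Prmt6 stood apart above all other libraries, and all NIC-Carm1 libraries were below NIC. Flt1 rose by 0.50 ± 0.16 (adjusted p = 0.0424) in NIC-Prmt1. In NIC-Prmt6 it rose by 1.34 ± 0.18 (adjusted p = 0.000598). The NIC-Prmt1 rise was lost under 11 of the alternatives tried, with adjusted p up to 0.225, among them each fit that left out either NIC library. Nrp1, a co-receptor that presents VEGF to VEGFR2, rose by 1.12 ± 0.12 (adjusted p = 0.000469) and 1.73 ± 0.13 (adjusted p = 5.38e-05). Flt4, the VEGF-C receptor VEGFR3 that is known from lymph vessels, rose by 1.29 ± 0.20 (adjusted p = 0.00226) and 1.38 ± 0.22 (adjusted p = 0.00153).

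Of the TIE receptor system, all 4 genes rose in NIC-Prmt1 and 3 in NIC-Prmt6. Tie1 (chromosome 4, 118471191 to 118490061, minus strand), a receptor that modulates TIE2, had counts of 1968 and 2689 in NIC, 6205, 4153 and 5260.2 in NIC-Prmt1, 2571, 2755 and 2725 in NIC-Carm1, and 5853 and 5954 in NIC-Prmt6. The libraries of NIC-Prmt1 and NIC-Prmt6 overlapped one another and lay above the rest. Tie1 rose by 1.16 ± 0.17 (adjusted p = 0.00162) and by 1.36 ± 0.18 (adjusted p = 0.000659). Ptprb (chromosome 10, 116275523 to 116389535, plus strand), the phosphatase VE-PTP that switches TIE2 off, had counts of 5504 and 5302 in NIC, 14479, 9608 and 9075 in NIC-Prmt1, 4759, 7552 and 7289.8 in NIC-Carm1, and 14784 and 15118 in NIC-Prmt6. Its rises were 1.0 ± 0.23 (adjusted p = 0.0105) in NIC-Prmt1, lost without either NIC library, and 1.47 ± 0.25 (adjusted p = 0.00198) in NIC-Prmt6. Tek, which encodes TIE2 itself, rose by 1.09 and 1.37. Angpt2 (chromosome 8, 18690263 to 18741562, minus strand), the angiopoietin that endothelial cells release to loosen vessels, had counts of 493 and 598 in NIC, 1059, 674 and 956 in NIC-Prmt1, 666, 487 and 498 in NIC-Carm1, and 691 and 764 in NIC-Prmt6. All NIC-Prmt1 and NIC-Prmt6 libraries lay above NIC, and 1 NIC-Carm1 library, replicate 1, also lay above NIC. Angpt2 rose by 0.70 ± 0.20 (adjusted p = 0.0287) in NIC-Prmt1, where 7 alternatives lost the call, and its value was 0.42 ± 0.22 (adjusted p = 0.165) in NIC-Prmt6 and 0.00 ± 0.20 (adjusted p = 0.993) in NIC-Carm1. Angpt2 overlaps Mcph1 on the opposite strand. In all, 12 of the 34 genes overlap another gene, among them also Cdh5, Plvap, Cd34, Nos3 and Sox17, and whether the counting used strand is not given in the sources used here, so reads of such pairs may be shared.

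Among the other receptors, Eng (chromosome 2, 32646595 to 32682669, plus strand), a co-receptor for TGF-beta and BMP ligands, had counts of 5002 and 5909 in NIC, 11325, 7652 and 9196 in NIC-Prmt1, 4079.6, 5242 and 4971 in NIC-Carm1, and 11479.6 and 11454 in NIC-Prmt6. Every NIC-Prmt1 and NIC-Prmt6 library was above every other library. Eng rose by 0.77 ± 0.17 (adjusted p = 0.00848) and by 1.08 ± 0.18 (adjusted p = 0.00193), though it overlaps Fpgs on the opposite strand. The NIC-Prmt1 rise of Eng was lost without NIC replicate 1 (adjusted p = 0.0666). Robo4 (chromosome 9, 37401897 to 37415115, plus strand), a guidance receptor that stabilises vessels, had counts of 1378 and 1720.1 in NIC, 3166, 2462 and 3528 in NIC-Prmt1, 1461, 1582 and 1530.3 in NIC-Carm1, and 3687 and 3812 in NIC-Prmt6. The NIC-Carm1 libraries lay between the NIC libraries, and those of NIC-Prmt1 and NIC-Prmt6 lay above both. Robo4 rose by 0.97 ± 0.15 (adjusted p = 0.002) and by 1.28 ± 0.16 (adjusted p = 0.000477), and its NIC-Carm1 value was -0.02 ± 0.15 (adjusted p = 0.96). S1pr1 (chromosome 3, 115710433 to 115715072, minus strand), the sphingosine 1-phosphate receptor that tightens the barrier, had counts of 3190.1 and 3178 in NIC, 5510.2, 3689 and 3786 in NIC-Prmt1, 2218, 3176 and 3243 in NIC-Carm1, and 4542 and 4463 in NIC-Prmt6. All NIC-Prmt1 and NIC-Prmt6 libraries of S1pr1 lay above NIC, yet the differences of 0.42 ± 0.20 (adjusted p = 0.131) and 0.50 ± 0.21 (adjusted p = 0.0933) did not pass the threshold.

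Aplnr (chromosome 2, 85136225 to 85139923, plus strand), the apelin receptor of sprouting vessels, moved in all 3 genotypes. Its counts were 208 and 385 in NIC, 2329.7, 1390.0 and 1789 in NIC-Prmt1, 1194, 769 and 778 in NIC-Carm1, and 1033 and 1024 in NIC-Prmt6. Both NIC libraries were below every other library, and the NIC-Prmt1 libraries were the highest. Aplnr rose by 2.66 ± 0.29 (adjusted p = 0.000548) in NIC-Prmt1, which is 6.33-fold and the largest change of the 34 genes against NIC. It rose by 1.86 ± 0.32 (adjusted p = 0.00206) in NIC-Prmt6. In NIC-Carm1 it rose by 1.66 ± 0.29 (adjusted p = 0.0063), a call lost without NIC replicate 1 (adjusted p = 0.0581). Its level per length in NIC, 2.87 RPKM, was above only those of Sox17, Flt4 and Prox1.

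Of the 5 transcription factor genes, 4 rose in both genotypes. Erg (chromosome 16, 95359169 to 95586593, minus strand), an ETS factor that maintains endothelial identity, had counts of 829.7 and 863 in NIC, 1642, 1044 and 1243 in NIC-Prmt1, 659, 786 and 772 in NIC-Carm1, and 1997 and 1915 in NIC-Prmt6. NIC-Prmt6 was highest and the 3 NIC-Carm1 libraries were below NIC. Erg rose by 0.60 ± 0.17 (adjusted p = 0.0228) in NIC-Prmt1, a call lost without either NIC library, and by 1.21 ± 0.18 (adjusted p = 0.00115) in NIC-Prmt6. Sox7 (chromosome 14, 63943673 to 63950732, plus strand), a SOX factor of vessel development, had counts of 1296 and 1394 in NIC, 2548, 1779 and 2231 in NIC-Prmt1, 1139.9, 947 and 942 in NIC-Carm1, and 3038 and 3015 in NIC-Prmt6. As for Erg, the 4 groups did not overlap. Sox7 rose by 0.69 ± 0.15 (adjusted p = 0.00806) and by 1.17 ± 0.16 (adjusted p = 0.000701), and its value was -0.42 ± 0.15 (adjusted p = 0.079) in NIC-Carm1. The first of these calls was lost without NIC replicate 1 (adjusted p = 0.0542). Sox17, which acts in arteries, rose by 1.37 in NIC-Prmt1 and 1.78 in NIC-Prmt6. Sox18, which acts in blood and lymph vessels, rose by 0.98 and 1.12, and its NIC-Carm1 value was -0.66 ± 0.24 (adjusted p = 0.086).

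Prox1 (chromosome 1, 190118035 to 190170714, minus strand) is the factor that gives lymphatic endothelium its identity, and it did not follow the other genes. Its counts were 356 and 182 in NIC, 318, 253 and 195 in NIC-Prmt1, 345, 297 and 254 in NIC-Carm1, and 242 and 217 in NIC-Prmt6. The 2 NIC libraries were the highest and the lowest of all 10, so every other group lay within their range. The values were -0.02 ± 0.29 (adjusted p = 0.957) in NIC-Prmt1, 0.22 ± 0.29 (adjusted p = 0.648) in NIC-Carm1 and -0.15 ± 0.31 (adjusted p = 0.732) in NIC-Prmt6. An antisense gene, Prox1os, overlaps it. Of the 4 lymphatic markers, the other 3 (Flt4, Lyve1 and Pdpn) rose in NIC-Prmt1 and in NIC-Prmt6. Lyve1, a hyaluronan receptor that some macrophages also carry, rose by 1.87 ± 0.35 (adjusted p = 0.00482) and by 2.42 ± 0.38 (adjusted p = 0.00148), and by 2.41 ± 0.35 in NIC-Carm1 (adjusted p = 0.00292).

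Among the secreted and matrix genes, Vwf (chromosome 6, 125546774 to 125686679, plus strand), the clotting protein stored in endothelial granules, had counts of 8075 and 10491 in NIC, 32713, 21401 and 20010.3 in NIC-Prmt1, 9353, 14639 and 14196 in NIC-Carm1, and 24003 and 24816 in NIC-Prmt6. NIC-Prmt1 replicate 1 was the highest library, and all of NIC-Prmt1 and NIC-Prmt6 lay above NIC and NIC-Carm1. Vwf rose by 1.39 ± 0.24 (adjusted p = 0.00375) and by 1.41 ± 0.27 (adjusted p = 0.00348). Mmrn2 (chromosome 14, 34375465 to 34404287, plus strand), an endothelial matrix protein that binds VEGF, had counts of 3260.1 and 3952 in NIC, 8239, 5242 and 6254 in NIC-Prmt1, 3028, 3421 and 3289 in NIC-Carm1, and 7236 and 6907 in NIC-Prmt6. Its NIC-Carm1 and NIC libraries overlapped, and the others lay above them. Mmrn2 rose by 0.85 ± 0.17 (adjusted p = 0.00581), a call lost without NIC replicate 1 (adjusted p = 0.0511), and by 0.98 ± 0.18 (adjusted p = 0.00321). Egfl7, a secreted factor that guides vessel tube formation and whose position overlaps Agpat2 and Gm20532, rose by 0.65 and 1.06. Esm1 (chromosome 13, 113209659 to 113218098, plus strand), a proteoglycan of endothelial tip cells, had counts of 232 and 148 in NIC, 683, 273 and 699.6 in NIC-Prmt1, 684, 156 and 135 in NIC-Carm1, and 198 and 163 in NIC-Prmt6. NIC-Prmt1 replicates 1 and 3 and NIC-Carm1 replicate 1 stood apart at 683 to 699.6, above 273 at most in the others, so the high values did not follow the groups. Esm1 had the largest standard errors of the list, with 1.45 ± 0.64 (adjusted p = 0.112) in NIC-Prmt1 and -0.04 ± 0.70 (adjusted p = 0.97) in NIC-Prmt6.

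The remaining 7 genes encode other membrane and cytoplasmic proteins, of which 5 rose in NIC-Prmt1 and 7 in NIC-Prmt6. Plvap (chromosome 8, 71497765 to 71511752, minus strand) had counts of 8031 and 11385 in NIC, 23150.3, 13929 and 18024 in NIC-Prmt1, 6888, 8205 and 7909 in NIC-Carm1, and 18713 and 18858 in NIC-Prmt6. Its NIC and NIC-Carm1 libraries overlapped, below all of the others. Plvap rose by 0.91 ± 0.21 (adjusted p = 0.0105) and by 0.97 ± 0.23 (adjusted p = 0.00853), and both calls were lost without NIC replicate 1. Cd34 (chromosome 1, 194938819 to 194961279, plus strand), a sialomucin of small vessels that fibroblast-like stromal cells also carry, had counts of 1667 and 2352 in NIC, 4912, 4318 and 5201 in NIC-Prmt1, 2250.4, 2694 and 2809 in NIC-Carm1, and 8033 and 7754 in NIC-Prmt6. NIC-Prmt6 stood above NIC-Prmt1, and NIC-Prmt1 above the rest. Cd34 rose by 1.28 ± 0.15 (adjusted p = 0.000829) in NIC-Prmt1. Its rise was 1.99 ± 0.17 (adjusted p = 8.69e-05) in NIC-Prmt6, which is 3.98-fold and the largest change of the 34 genes in that genotype. Clec14a (chromosome 12, 58264720 to 58269290, minus strand), a lectin-like receptor that binds Mmrn2, had counts of 489 and 481 in NIC, 1504, 923 and 1052 in NIC-Prmt1, 713, 798 and 791 in NIC-Carm1, and 1042 and 1117 in NIC-Prmt6. Both NIC libraries were below all others. Clec14a rose by 1.22 ± 0.17 (adjusted p = 0.00152) in NIC-Prmt1, by 1.15 ± 0.19 (adjusted p = 0.00182) in NIC-Prmt6 and by 0.66 ± 0.17 (adjusted p = 0.0314) in NIC-Carm1. The NIC-Carm1 call was lost under 8 alternatives, among them without either NIC library. Ecscr, a regulator of endothelial migration that overlaps 1700066B19Rik, rose by 0.96 and 0.85. Nos3, the endothelial nitric oxide synthase, rose by 0.81 and 1.12.

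Myct1 and Rasip1 were the 2 genes that fell in NIC-Carm1. Myct1 (chromosome 10, 5593775 to 5606904, plus strand), an endothelial membrane protein, had counts of 496 and 647 in NIC, 683, 551 and 769 in NIC-Prmt1, 379.6, 368 and 351 in NIC-Carm1, and 848 and 848 in NIC-Prmt6. Every NIC-Carm1 library was below every other library, and NIC-Prmt1 overlapped NIC. Myct1 fell by 0.63 ± 0.16 (adjusted p = 0.0251) in NIC-Carm1, was at 0.22 ± 0.16 (adjusted p = 0.303) in NIC-Prmt1, and rose by 0.58 ± 0.17 (adjusted p = 0.0244) in NIC-Prmt6. That rise was lost without NIC replicate 1, without either NIC-Prmt6 library and with those libraries averaged (adjusted p up to 0.152). Rasip1 (chromosome 7, 45627488 to 45639093, plus strand), a Ras-binding protein needed to open the vessel lumen, had counts of 2394 and 3155 in NIC, 4399, 2887 and 3664 in NIC-Prmt1, 1639, 1846 and 1685 in NIC-Carm1, and 5574 and 5531 in NIC-Prmt6. Its NIC-Carm1 libraries were also the lowest. Rasip1 fell by 0.67 ± 0.17 (adjusted p = 0.0252) in NIC-Carm1, was at 0.39 ± 0.17 (adjusted p = 0.107) in NIC-Prmt1, and rose by 1.01 ± 0.18 (adjusted p = 0.00283) in NIC-Prmt6. Both falls were lost without NIC replicate 2, without NIC-Carm1 replicate 2 or 3, and with the nearly identical libraries averaged. Rasip1 overlaps Izumo1 on the same strand and 2 antisense genes.

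**Figure D4:**
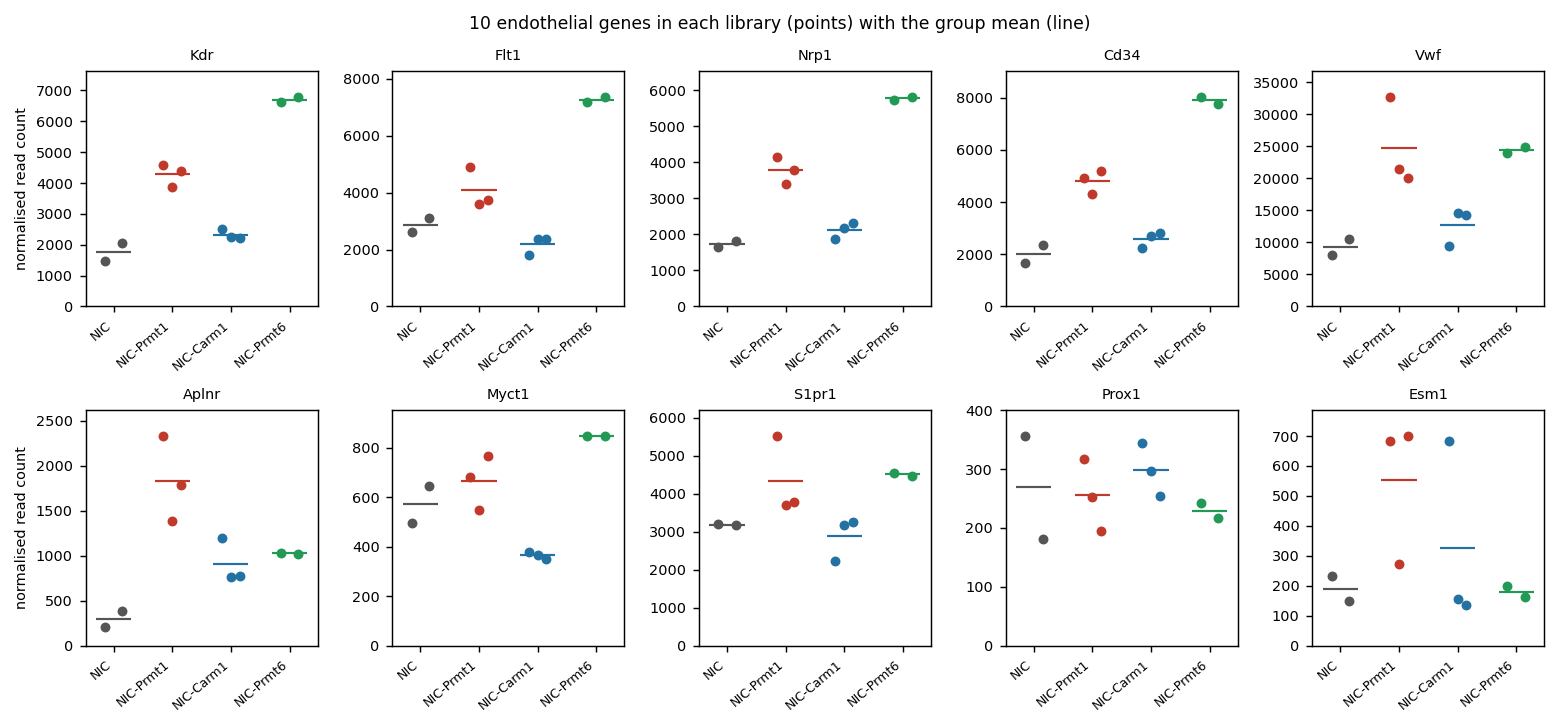
Points give the normalised read count of 10 endothelial genes (panels, each axis from 0) in each library, by group, and lines give group means. Kdr, Nrp1 and Cd34 are highest in NIC-Prmt6, Aplnr is lowest in NIC, Myct1 is lowest in NIC-Carm1, and Prox1 and Esm1 spread within groups.

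Set directly against each other, NIC-Prmt1 was above NIC-Carm1 for nearly the whole list. In that comparison 32 of the 34 genes were higher and 0 lower, where 26.8% of all genes were called, 14.9% higher and 11.8% lower, and the median log2 difference was 0.95. Every NIC-Prmt1 library lay above every NIC-Carm1 library for these 32 genes, against 22.0% of all genes. With the nearly identical libraries averaged, 26 were called higher. Sox18 differed most, by 1.63 ± 0.21 (adjusted p = 0.00154), and the genes not called were Prox1, at -0.24 ± 0.26 (adjusted p = 0.512), and Esm1, at 1.06 ± 0.57 (adjusted p = 0.198). The lower count was also 0 at an unadjusted p under 0.05 and with DESeq2, edgeR or voom.

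NIC-Carm1 was likewise below NIC-Prmt6. Of the 34 genes, 30 were lower and 0 higher, where 39.2% of all genes were called, 20.9% lower and 18.4% higher, and the median log2 difference was -1.23. All NIC-Carm1 libraries lay below both NIC-Prmt6 libraries for 31 of the genes, against 35.2% of all genes. With the nearly identical libraries averaged, 24 were called lower. Sox18 was lower by 1.77 ± 0.24 (adjusted p = 0.00053) and Flt1 by 1.75 ± 0.16 (adjusted p = 9.27e-05). The genes not called were Angpt2, Aplnr, Prox1 and Esm1, of which Aplnr differed by -0.20 ± 0.29 (adjusted p = 0.606). The higher count was also 0 at an unadjusted p under 0.05 and with those other tools.

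NIC-Prmt1 and NIC-Prmt6 differed in few of the genes. 4 of the 34 (11.8%) were lower in NIC-Prmt1 and 0 were higher, where 7.49% of all genes were called, 4.94% lower and 2.54% higher. The median log2 difference was -0.27, and 16 genes had every NIC-Prmt1 library below both NIC-Prmt6 libraries, against 26.8% of all genes. The 4 genes were 3 of the 4 VEGF receptor genes and Cd34. Flt1 was lower by 0.84 ± 0.16 (adjusted p = 0.0145), Cd34 by 0.72 ± 0.15 (adjusted p = 0.0222), Kdr by 0.65 ± 0.14 (adjusted p = 0.0231) and Nrp1 by 0.61 ± 0.12 (adjusted p = 0.0138). Flt4 differed by -0.09 ± 0.20 (adjusted p = 0.816). At an unadjusted p under 0.05, 11 genes were lower in NIC-Prmt1 and 2 higher (Aplnr and Esm1), and of genes higher DESeq2 called 1, edgeR 0 and voom 2. Each of the 4 calls was lost without either NIC-Prmt6 library and with those libraries averaged to 1 sample (adjusted p up to 0.298). Without NIC-Prmt1 replicate 1 the count was 9, without NIC-Prmt1 replicate 2 it was 2, without NIC-Prmt1 replicate 3 it was 1, and without NIC-Carm1 replicate 1, which enters only through the shared spread, it was 7.

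In the order of group means, NIC-Prmt6 was highest for 26 of the 34 genes, NIC-Prmt1 for 7 and NIC-Carm1 for 1, which was Prox1. NIC-Carm1 was lowest for 18 genes, NIC for 14 and NIC-Prmt6 for 2, which were Prox1 and Esm1. The most frequent order, for 16 genes, ran from NIC-Prmt6 through NIC-Prmt1 and NIC to NIC-Carm1. The outer steps of these orders were mostly not called: NIC-Prmt6 and NIC-Prmt1 differed by the test for 4 genes, and NIC and NIC-Carm1 for 4.

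A list of 35 further endothelial genes held other transcription factors, Notch ligands and receptors and selectins, and was not compared with the 34 by a test. In NIC-Prmt1 22 were higher (62.9%, against 15.2% of all genes) and 3 lower (8.57%, against 14.4%) than in NIC. In NIC-Prmt6 27 were higher (77.1%, against 19.0%) and 3 lower (8.57%, against 17.8%). In NIC-Carm1 3 were higher (8.57%, against 6.65%) and 7 lower (20%, against 9.36%). The median log2 fold changes were 0.71, 1.10 and -0.12 in that order. The summed counts of the 35 genes were 154618 and 167593 in NIC, 189386, 139448 and 169475 in NIC-Prmt1, 89005, 94002 and 93632 in NIC-Carm1, and 231333 and 230739 in NIC-Prmt6. Unlike the sum of the 34, this sum overlapped between NIC-Prmt1 and NIC, and all NIC-Carm1 libraries were below NIC. Such a sum is weighted to the genes with the highest counts, so it need not follow the medians above. Stab1, a scavenger receptor of sinus-like vessels that macrophages share, rose by 1.32 ± 0.13 in NIC-Prmt1 (adjusted p = 3.86e-04), 1.03 ± 0.13 in NIC-Carm1 (adjusted p = 0.00176) and 2.05 ± 0.14 in NIC-Prmt6 (adjusted p = 5.38e-05). Adgrl4, an adhesion receptor of angiogenic endothelium, rose by 1.02 ± 0.13 in NIC-Prmt1 (adjusted p = 8.79e-04) and in NIC-Prmt6 by 1.50 ± 0.14 (adjusted p = 1.08e-04), and its NIC-Carm1 value was 0.13 ± 0.13 (adjusted p = 0.526). Dll4, the Notch ligand of tip cells, had counts of 1419 and 1324 in NIC, 1481, 1639 and 1809.5 in NIC-Prmt1, 715, 744 and 788 in NIC-Carm1 and 3057 and 3026 in NIC-Prmt6. The groups of Dll4 did not overlap. It rose by 1.15 ± 0.11 in NIC-Prmt6 (adjusted p = 1.35e-04), fell by 0.87 ± 0.10 in NIC-Carm1 (adjusted p = 0.00113) and was at 0.26 ± 0.10 in NIC-Prmt1 (adjusted p = 0.08). The 3 genes lower in NIC-Prmt1 and the 3 lower in NIC-Prmt6 were in both cases Ephb4, Hey1 and Tm4sf1, named after their values were seen.

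Of 11 genes for VEGFs, angiopoietins and other vessel-guiding ligands, 4 were higher (36.4%, against 15.2% of all genes) and 1 lower (9.09%, against 14.4%) in NIC-Prmt1. In NIC-Carm1 0 were higher (against 6.65%) and 2 lower (18.2%, against 9.36%), and in NIC-Prmt6 5 were higher (45.5%, against 19.0%) and 0 lower (against 17.8%). Figf, which encodes VEGF-D, rose by 2.51 ± 0.24 in NIC-Prmt6 (adjusted p = 1.30e-04) and was at 0.23 ± 0.22 in NIC-Prmt1 (adjusted p = 0.447). The difference between these genotypes was itself called, at -2.28 ± 0.22 (adjusted p = 7.01e-04). Apln, the ligand of Aplnr, rose by 1.53 ± 0.38 in NIC-Prmt1 (adjusted p = 0.0156) and in NIC-Prmt6 by 2.17 ± 0.42 (adjusted p = 0.00372), and was at 1.17 ± 0.38 in NIC-Carm1 (adjusted p = 0.0637). Vegfc, the ligand of Flt4, rose by 0.83 ± 0.23 (adjusted p = 0.0229) and 0.98 ± 0.25 (adjusted p = 0.0132) in NIC-Prmt1 and NIC-Prmt6. Cyr61, a matrix protein that promotes vessel growth, fell by 0.71 ± 0.13 in NIC-Carm1 (adjusted p = 0.00835) and rose by 0.42 ± 0.14 in NIC-Prmt6 (adjusted p = 0.0452). Vegfa, the main ligand of Kdr and named for that role, was not called in any comparison with NIC, with values of -0.42 ± 0.35, -0.63 ± 0.35 and -0.10 ± 0.38 in NIC-Prmt1, NIC-Carm1 and NIC-Prmt6.

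Markers of some other cell types also differed between the genotypes, and their part in the result was not tested. Against NIC, 15.2% of all genes were higher in NIC-Prmt1, 6.65% in NIC-Carm1 and 19.0% in NIC-Prmt6. The shares of all genes called lower were 14.4%, 9.36% and 17.8% in that order. The 8 markers of pericytes and vessel muscle, the cells wrapped around vessels, summed to 13932 to 14151 in NIC, 26238 to 40519.9 in NIC-Prmt1, 15993 to 19987 in NIC-Carm1 and 34305 to 35379 in NIC-Prmt6. Of these 8, 8 were higher in NIC-Prmt1, 7 in NIC-Prmt6, and 3 were higher and 1 lower in NIC-Carm1. The 8 fibroblast markers summed to 84426 to 106511 in NIC, 133239.9 to 175749 in NIC-Prmt1, 84528 to 102226 in NIC-Carm1 and 322016 to 323277 in NIC-Prmt6, with 5, 0 and 8 of them higher than in NIC in the PRMT genotypes in that order. All 8 were also lower in NIC-Prmt1 than in NIC-Prmt6, where 4.94% of all genes were, Kdr, Flt1, Nrp1 and Cd34 among them. In that comparison 4 of the 6 macrophage markers and 1 of the 8 pericyte markers were lower as well. None of the 6 adipocyte markers was called there, with a median log2 difference of -2.46. The calls of that comparison rest on NIC-Prmt6 libraries that may be repeats of 1 sample. Those of Kdr, Flt1, Nrp1 and Cd34 were lost without either of these libraries. The 6 macrophage markers were all higher in NIC-Prmt6, with sums of 12588 to 12876 against 3803 to 4532 in NIC, and 2 of the 6 were higher in NIC-Prmt1 (3955 to 6985) and in NIC-Carm1 (5307 to 9094). The 6 adipocyte markers summed to 6948 to 8458 in NIC, 15349.9 to 24703 in NIC-Prmt1, 8213 to 9022 in NIC-Carm1 and 28618 to 29202 in NIC-Prmt6, with 1 of 6 called higher in NIC-Prmt1 and in NIC-Prmt6 and 1 lower in NIC-Carm1. Nearly all of each sum was Fabp4, which capillary endothelium also expresses, at 6798 and 7979 in NIC, 21169, 15239 and 24532 in NIC-Prmt1, 8517, 8119 and 8712 in NIC-Carm1, and 28266 and 27642 in NIC-Prmt6. Fabp4 was the 1 marker of the 6 with a positive log2 fold change in NIC-Prmt1, where the median was -0.43, and all 6 were positive in NIC-Prmt6, with a median of 1.81.

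Epithelial markers moved differently. The 7 luminal markers summed to 252407 to 306203 in NIC, 156239.5 to 227505 in NIC-Prmt1, 133937 to 170402 in NIC-Carm1 and 148363 to 149865 in NIC-Prmt6. Of these 7, 5 were called lower in NIC-Carm1, 5 in NIC-Prmt6 and 3 in NIC-Prmt1, where 1 was higher. Whether these changes bear on the endothelial sums was not tested. The 6 basal markers summed to 31379 to 37108 in NIC, 66818 to 122085 in NIC-Prmt1, 35553 to 36885 in NIC-Carm1 and 43355 to 43553 in NIC-Prmt6, with 5, 0 and 1 of them higher. NIC-Prmt1 replicate 1, which had the highest endothelial sum of its group, also had the highest basal, pericyte and fibroblast sums of that group. Its 6 skin keratinocyte markers summed to 19961 against 41.3 to 2152 in all other libraries, with Lor, Krt77, Krt25 and Dsg1a at 0 in some. Without that library the NIC-Prmt1 count of endothelial rises against NIC was 26. The 6 leukocyte markers summed to 623 to 2001 over all libraries, with none called against NIC. Of 5 platelet markers 4 were measured, with sums of 249.6 to 871, Ppbp at 0 in a library, and 1, 1 and 2 of them higher in the PRMT genotypes in that order. The 5 skeletal muscle markers summed to 235 to 1558 and had 1 higher in each of the 3 genotypes. Of 4 red cell markers only Alas2 was measured, at 99.8 to 211.

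**Figure D5:**
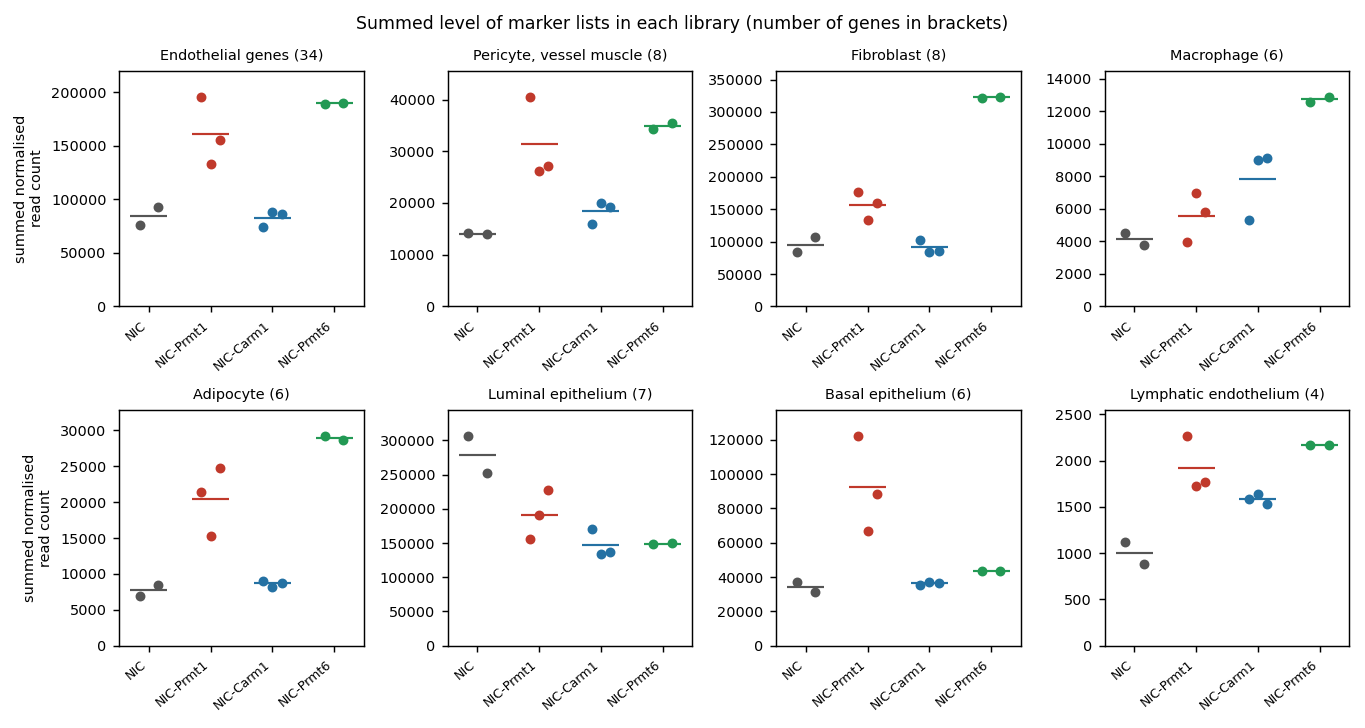
Points give the summed normalised read count of each list in each library (each axis from 0), by group, and lines give group means, with the number of genes in brackets. The endothelial and pericyte sums are high in NIC-Prmt1 and NIC-Prmt6, the fibroblast sum is highest in NIC-Prmt6 (322016 to 323277), the basal sum in NIC-Prmt1 and the luminal sum in NIC.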

How the data were processed

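RNA-seq was measured in 10 libraries of 4 genotypes. The tools named in the submitters' processing notes are TopHat2 2.0.10, HTSeq 0.6.0 and DESeq 1.18.0, with build mm10; no annotation, strand setting or filter was given in the sources used here. The deposited table holds a normalised signal per gene and library. All deposited values (100%) were whole multiples of the library's value of 1 read within 0.01, so the signal is a read count divided by a size factor, and whole reads were recovered from it. The authors' table gave 16290 genes and recovered totals of 21589274 to 30260921 reads, a depth at which every listed gene had at least 114 reads in every library.

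Groups were taken from the genotype labels. The test was limma-trend (R 4.3.3, limma 3.58.1) on log2(value + 1), fitted once to all 10 libraries with 4 group means, for the 15694 genes that reached 10 in 2 or more libraries. Benjamini-Hochberg adjustment ran over all genes tested, with a threshold of 0.05, and each adjusted p quoted is limma's. The test was also run on simulated independent libraries, a check that does not cover nearly identical pairs. The 34 genes, the marker and pathway lists and the tests were chosen with earlier results of these data known. Genes given library by library were the 2 with the highest mean count in each role class, those that moved against their class, and the 2 with the largest and the 2 with the smallest change in each comparison with NIC. At most 4 genes of each pathway list, those with the smallest adjusted p against NIC, were given values under this rule. Outside it, Vegfa was given for its role as ligand of Kdr, and Lyve1 as a lymphatic marker. RPKM was computed from recovered reads and merged exon lengths. The alternatives tried were pseudocounts of 0.5 and 5, no filter, a minimum of 50, upper-quartile and TMM rescaling, recovered reads tested with DESeq2 1.42.0, edgeR 4.0.16 and weighted voom, fits to the 2 compared groups alone, a replicate block, averaging of nearly identical libraries, and leaving out each library. No pairing by replicate number was seen: over 13 same-numbered pairs the correlation of deviations ran from -0.13 to 0.1. With so few libraries a group, some of them nearly identical, this check could miss a pairing.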

Additional observations from a re-analysis of the deposited data

How the results depend on the processing

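Against NIC, 15 of 29 NIC-Prmt1 calls and 22 of 30 NIC-Prmt6 calls among the 34 genes held under every alternative, and 0 genes were called lower in either under any of them. Leaving out a library gave 15 to 31 rises in NIC-Prmt1 and 24 to 31 in NIC-Prmt6. Between genotypes, 26 of 32 calls held for NIC-Prmt1 against NIC-Carm1 and 24 of 30 for NIC-Carm1 against NIC-Prmt6. None of the 4 NIC-Carm1 calls against NIC held under every alternative: rises numbered 2 in the reported fit, 4 with DESeq2, 9 with voom, 1 with the replicate block, 1 with averaged libraries and 0 to 3 without a library, and falls numbered 2, then 6 with voom, 1 with the 2 groups alone, 0 with the replicate block, 0 with averaged libraries and 0 to 4 without a library. In NIC-Prmt1 against NIC-Prmt6, rises numbered 0, then 1 with DESeq2, 2 with voom and 0 to 1 without a library, and falls numbered 4, then 8 with DESeq2, 14 with voom, 2 with the replicate block, 0 with averaged libraries and 0 to 9 without a library. The replicate block left 25 rises in NIC-Prmt1 against NIC.

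Over all genes, calls for NIC-Prmt1 against NIC numbered 4645, then 2775 with the 2 groups alone, 2601 averaged and 2271 to 5646 without a library. For NIC-Carm1 against NIC they numbered 2513, then 4309 with voom, 1441 with the 2 groups alone, 1667 with the replicate block, 340 averaged and 708 to 3384 without a library. For NIC-Prmt6 against NIC they numbered 5778, then 1664 averaged and 2656 to 6632 without a library. For NIC-Prmt1 against NIC-Carm1 they numbered 4199, then 1355 averaged and 2638 to 4692 without a library. For NIC-Prmt1 against NIC-Prmt6 they numbered 1175, then 2133 with DESeq2, 4973 with voom, 571 with the replicate block, 21 averaged and 47 to 2241 without a library. For NIC-Carm1 against NIC-Prmt6 they numbered 6157, then 10902 with voom, 1262 averaged and 2569 to 6799 without a library. Upper-quartile rescaling moved the split of calls to 1312 higher and 1230 lower in NIC-Carm1 against NIC (from 1044 and 1469), and to 577 and 550 in NIC-Prmt1 against NIC-Prmt6 (from 399 and 776), and to 3574 and 2819 in NIC-Carm1 against NIC-Prmt6 (from 2882 and 3275). Averaging moved it to 89 and 251 in NIC-Carm1 against NIC, 1082 and 582 in NIC-Prmt6 against NIC (from 2984 and 2794), 990 and 365 in NIC-Prmt1 against NIC-Carm1 (from 2340 and 1859), 4 and 17 in NIC-Prmt1 against NIC-Prmt6, and 268 and 994 in NIC-Carm1 against NIC-Prmt6.

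Signs turned for genes that were not called. In NIC-Carm1 against NIC, voom gave log2 fold changes of -0.10 for Angpt2, 0.03 for Ecscr, -0.30 for Esm1 and 0.03 for Robo4, and upper-quartile rescaling gave 0.03 for Robo4. Leaving out a library there gave -0.14 to 0.14 for Angpt2, -0.23 to 0.03 for Ecscr, -0.35 to 0.82 for Esm1, -0.27 to 0.70 for Prox1, -0.18 to 0.14 for Robo4, -0.26 to 0.01 for S1pr1 and -0.0033 to 0.45 for Tie1. In NIC-Prmt1 against NIC, Prox1 was at 0.02 with upper-quartile rescaling, 0.12 with the replicate block and -0.51 to 0.46 without a library. In NIC-Prmt6 against NIC, leaving out a library gave -0.36 to 0.28 for Esm1 and -0.64 to 0.33 for Prox1. Apart from the fewer libraries in some of these fits, the cause was not tested. With 2 or 3 libraries a group, at normalised counts of 135 to 699.6, the spread between libraries limits Esm1 and Prox1.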

Other observations

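Ratios of 2 listed genes within a library do not depend on the library's size factor, and these were looked at after the values had been seen, so they carry no test. The ratio of Kdr to Flt1 normalised read counts was 0.555 and 0.663 in NIC, 0.938, 1.08 and 1.16 in NIC-Prmt1, 1.4, 0.941 and 0.938 in NIC-Carm1, and 0.922 and 0.922 in NIC-Prmt6. All 8 libraries of the PRMT genotypes lay above both NIC libraries. How many other pairs of genes show such a separation was not counted, for this ratio or those below. Counts per gene do not separate the soluble form of Flt1 from the membrane form.

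The ratio of Aplnr to Pecam1 showed the same ordering, with 0.0228 and 0.0352 in NIC, 0.121, 0.104 and 0.115 in NIC-Prmt1, 0.168, 0.0885 and 0.0885 in NIC-Carm1, and 0.063 and 0.0637 in NIC-Prmt6. For Myct1 to Pecam1 the NIC libraries were highest, at 0.0544 and 0.0593, against 0.0355, 0.0412 and 0.0495 in NIC-Prmt1, 0.0533, 0.0424 and 0.0399 in NIC-Carm1, and 0.0518 and 0.0527 in NIC-Prmt6. The ratio of Prox1 to Flt4, both known from lymph vessels, was 1.46 and 0.56 in NIC, 0.339, 0.443 and 0.315 in NIC-Prmt1, 0.841, 0.7 and 0.639 in NIC-Carm1, and 0.34 and 0.284 in NIC-Prmt6. NIC-Carm1 lay within the range of NIC for this ratio, and the NIC-Prmt1 and NIC-Prmt6 libraries lay below both.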
